A study of Mus musculus with 113 samples.

Results

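The 10 imprinted genes H19, Igf2, Meg3, Dlk1, Peg3, Peg10, Mest, Plagl1, Snrpn and Grb10 were followed while mouse embryonic stem (ES) cells became neural cells. They were chosen by gene symbol and are 10 of the 23739 symbols found in any of the 4 deposited expression tables. R1 ES cells, grown on feeder cells and then passaged once without them, were differentiated by 2 protocols. One was SFEB, in which cells float as aggregates in serum-free medium, and the other an adherent monoculture in N2B27 medium. In both protocols the cells were moved to coated dishes on day 6, SFEB cells after dissociation and into another medium, so the 216 h SFEB cells were plated. Whether the 144 h samples were taken before or after this step is not given in the sources used here, and from there on time and replating cannot be told apart. SFEB gave a first series of 14 cell populations from 0 to 142 h, a parallel series of 8 populations from 0 to 216 h, and 64 single cells, 8 at each time of the parallel series. The adherent monoculture gave 15 populations from 0 to 216 h. All of these came from R1 cells, with 1 library per time point and no replicates. A separate set of 12 libraries came from E14 ES cells, wild type (WT) or carrying a CRISPR/Cas9 deletion in Fyn (Fyn KO, 1 clone), at day 0 and day 4 of differentiation, with 3 libraries in each of the 4 groups. The questions were how the members moved along neural differentiation and whether their levels differed without Fyn, a Src family tyrosine kinase.

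Imprinted genes are transcribed from only the maternal or only the paternal copy, and a stretch of DNA methylated in one germ line, the imprinting control region, sets which copy is silent. H19 and Igf2 sit beside each other and draw on the same enhancers, with H19 transcribed from the maternal and Igf2 from the paternal copy. Many imprinted genes act on growth before birth, and several are also transcribed in brain, where Grb10 switches from the maternal to the paternal copy in neurons. The tables hold total RNA of each gene, so which parental copy it came from was not measured.

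Levels are FPKM, fragments scaled to transcript length and to the mapped fragments of the library, so they can be set side by side between genes of 1 library. The FPKM of the SFEB populations were then adjusted for batch by the authors. There rankings of genes and sums over markers hold for the adjusted values only. Each table was normalized on its own, so tests stay within a table. The study states a minimum of reads per library where it describes the single cells and the parallel SFEB populations. The FPKM columns carry no read counts, so the depth reached by each library is not given in the sources used here. For each gene with at least 1 FPKM in at least 3 samples of a series, limma gave the slope of log2(FPKM + 1) per day with its standard error (SE). A gene was called below an adjusted p of 0.05, Benjamini-Hochberg over all genes tested. On this scale the change of low genes is understated, and a straight line describes a fall followed by a rise poorly.

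The summed FPKM of 8 of 8 ES cell markers fell from 2104 at 0 h to 132 at 142 h in the first SFEB series and from 2274 to 268 in the adherent monoculture. The sum of 7 of 7 neural progenitor markers went from 32.8 to 827 and from 27.6 to 531. Neuron markers, 5 of 6 in these 2 series with none at 0, were high at 0 h, fell and then rose. Their sum in the first SFEB series was 179.8 at 0 h, 91.6 at 54.5 h and 687 at 142 h, with Stmn2 the most abundant at 0 h and Tubb3 at the other times named. In the adherent monoculture, with Tubb3 the most abundant throughout, it was 282 at 0 h, 117.1 at 53.5 h and 1230 at 216 h. In the E14 libraries, with 6 of 6, it was 190.01, 128 and 209.97 in Fyn KO day 0 and 50.7, 66.2 and 54.03 in Fyn KO day 4, so this sum fell. WT had 118.3, 42.4 and 78.35 at day 0, each below every KO day 0 library, and 105.9, 78.1 and 59.5 at day 4, so the WT days overlapped. Stmn2 was the most abundant in every KO day 0 library and Stmn2, Nefl and Tubb3 in WT day 0 replicates 1, 2 and 3. Over both genotypes 1 marker was at 0 in each day 0 library and none at day 4. What raises it at day 0 was not tested.

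Fibroblast markers, 12 of 12 in each table, were high in the early samples. Their sum in the first SFEB series was 1251 at 0 h, with Col1a1 the most abundant at 316, then 1192 at 1 h, 911 at 2 h, 520.2 at 8 h, 153 at 22 h and 25.4 at 142 h. In the parallel SFEB series it was 1304 at 0 h, 509 at 9 h, 88.1 at 38 h and 129 at 216 h, and in the adherent monoculture 655 at 0 h, 439.7 at 8.5 h, 179.6 at 20.5 h and 63.3 at 216 h. No fibroblast marker was at 0 in the samples up to 9 h. What feeder cells gave to the early levels of the members was not tested, and in a population fewer cells of a type and less RNA per cell cannot be told apart.

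3 libraries stood apart. In the adherent monoculture the 144 h sample had a fibroblast sum of 227, of which Tagln gave 175, and a sum of 131 over the 8 of 9 endoderm markers in that table, against 22.3 at 140.5 h and 60.5 at 216 h. Dab2 was its most abundant endoderm marker at 49.0. Its mesoderm sum, 2 of 8 markers, was 23.8 against 1.01 at 140.5 h, with T at 22.7, and its trophoblast sum, 4 of 7 markers, was 11.95 against 1.04, with Krt7 at 10.2. No marker of these 4 lists was at 0 in that library. Among the E14 libraries, WT day 4 replicate 1 had a neural progenitor sum of 183 against 23.3 and 50.6 in the other libraries of its group. Its endoderm sum was 9.52 against 70.9 and 105. Fyn KO day 0 replicate 3 had 132 FPKM of Dnmt3l, an ES cell cofactor of de novo DNA methylation, against 12.99 and 1.31. Values without these libraries are given where they change a call and in some other places, and leaving them out together was chosen after seeing the data.

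In the GENCODE annotation of mm9, H19 lies at chr7:149761434-149764048 and Igf2 at chr7:149836673-149852721, both on the minus strand. H19, a maternally expressed long noncoding RNA, was the most abundant member at the start of both SFEB series. In the first series it stood at 439.6 FPKM at 0 h, 376 at 1 h, 311 at 2 h, 161 at 8 h, 56.9 at 22 h and 35.6 at 34 h, and from 42.5 h on it lay between 13.6 and 22.3. Most of the fall was over by 42.5 h. In the parallel series H19 went from 429 at 0 h through 119 at 9 h and 13.7 at 38 h to 2.73 at 60 h, then came back to 7.31 at 84 h, 34.8 at 106 h, 152 at 144 h and 148 at 216 h. The low point was thus followed by a recovery there, which the first series, ending at 142 h, did not show. In the adherent monoculture H19 lay between 63.2 and 83.8 up to 41.5 h, between 15.1 and 42.3 from 53.5 to 140.5 h, at 100.03 at 144 h and at 40.3 at 216 h.

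Igf2, the paternally expressed fetal growth factor of the same locus, also fell early in both SFEB series. It was at 167 FPKM at 0 h, 165 at 1 h, 111 at 2 h, 76.4 at 8 h, 25.7 at 22 h and 12.8 at 34 h in the first SFEB series, and between 6.03 and 14.6 afterwards. In the parallel series Igf2 was 154 at 0 h, 50.3 at 9 h, 2.23 at 38 h, listed at -0.563 at 60 h, 0.889 at 84 h, 13.2 at 106 h, 68.6 at 144 h and 107 at 216 h. Values below 0 come from the batch adjustment of the SFEB table and were set to 0. In this series both genes therefore passed through a trough between 38 and 84 h and were high again at 144 and 216 h. The adherent monoculture held 49.4 at 0 h, 47.4 at 8.5 h, 28.7 at 20.5 h and 23.5 at 41.5 h. Over these times H19 did not fall, with 73.3 at 8.5 h, 70.1 at 20.5 h and 83.8 at 41.5 h. Igf2 then had its lowest value, 11.3, at 125.5 h, 123 at 144 h and 24.8 at 216 h, with a median of 23.5.

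In the first SFEB series H19 fell by 0.75 log2 units per day (SE 0.15, adjusted p = 0.000591), and Igf2 fell by 0.63 (SE 0.16, adjusted p = 0.00308). Both calls rest on the early samples. Without the samples up to 9 h, an alternative added after seeing the data, the slope of H19 was -0.19 (adjusted p = 0.117) and that of Igf2 was -0.05 (adjusted p = 0.706). Over all 20 alternatives the adjusted p of H19 lay between 1.23e-11 and 0.117 and that of Igf2 between 5.56e-11 and 0.706. In the parallel series the straight line gave 0.07 for H19 (SE 0.26, adjusted p = 0.838) and 0.19 for Igf2 (SE 0.30, adjusted p = 0.632). Without its 0 and 9 h samples both rose, H19 by 0.69 per day (adjusted p = 0.0115, range over 14 alternatives 7.82e-05 to 0.979) and Igf2 by 0.93 (adjusted p = 0.00439, range 4.66e-05 to 0.898). Fibroblast markers summed to 70.3 at 144 h and 129 at 216 h of this series, against 1304 at 0 h. Endoderm markers, 4 of 9 in this table, summed to 3.44 at 60 h, 17.6 at 106 h, 20.9 at 144 h and 21.9 at 216 h, with Foxa2 the most abundant from 84 h on. Mesoderm markers, 4 of 8, went from 0.72 at 38 h, with 1 marker at 0, to 32.6 at 106 h, with T at 27.6. They then fell to 22.3 at 144 h and 5.54 at 216 h. No marker of these 3 lists was at 0 from 106 h on. Their part in the return of H19 and Igf2 was not tested.

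For the adherent monoculture the slope of H19 was -0.16 (SE 0.08, adjusted p = 0.0893) and that of Igf2 -0.08 (SE 0.09, adjusted p = 0.469). The late samples decided both. Without 144 h H19 had -0.22 (adjusted p = 0.0109) and Igf2 -0.17 (adjusted p = 0.0245), and without 216 h H19 had -0.26 (adjusted p = 0.028). Without both times H19 fell by 0.42 per day (adjusted p = 1.67e-05) and Igf2 fell by 0.34 (adjusted p = 4.74e-05). The rank of time in place of hours also called H19, at -0.11 (adjusted p = 0.0431). Over the 22 alternatives the adjusted p ran from 1.67e-05 to 0.387 for H19 and from 4.74e-05 to 0.692 for Igf2.

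H19 and Igf2 varied together over the samples of each series. On log2(FPKM + 1), Pearson's r was 0.991 over 14 samples of the first SFEB series (permutation p = 1e-05, the smallest that 100000 resamples can give). Spearman's rho was 0.947 (permutation p = 2e-05). Over the 8 parallel samples r was 0.99 (exact permutation p = 4.96e-05) and rho 0.976 (exact permutation p = 0.000397), and over the 15 adherent samples r was 0.815 (permutation p = 0.00017) and rho 0.764 (permutation p = 0.00133). Adjusted over the family of 6 relations, the p of r were 6e-05, 0.000149 and 0.00034, and those of rho 0.00012, 0.00119 and 0.00266. Without the 2 samples whose H19 lay farthest from its median, r was 0.983, 0.976 and 0.788. All samples share the time course, and in the adherent series 144 h, high in both genes, was 1 of the 2 left out. The permutation ignores the order of time, so its p cannot tell a relation of this pair from a shared time course. In the adherent series Glipr2, Cox6b2 and Mfge8 had a higher r with H19 than Igf2 had, 0.929, 0.885 and 0.913. Over the 22 SFEB samples their r with H19 was 0.891, 0.923 and 0.892.

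Meg3, a maternally expressed long noncoding RNA, is a neighbour of Dlk1, which encodes a paternally expressed transmembrane protein related to Notch ligands. Meg3 lies at chr12:110779211-110809936 and Dlk1 at chr12:110691033-110701546 of mm9, both on the plus strand. In the first SFEB series Meg3 was 164 FPKM at 0 h, went down to 53.9 at 22 h and 53.4 at 34 h, and was back at 106 at 42.5 h and 135 at 142 h, with a median of 117. The parallel series had its lowest value, 57.3, at 9 h, a median of 103 and its highest, 313, at 216 h. In the adherent monoculture Meg3 lay between 34.4 and 73.2 up to 41.5 h and between 113 and 235 from 53.5 h on. The samples before and after that step do not overlap. Meg3 rose in the adherent monoculture by 0.24 per day (SE 0.07, adjusted p = 0.0089), but by 0.19 (adjusted p = 0.108) without the samples up to 9 h, with a range of 0.00253 to 0.108 over the alternatives. In the parallel series Meg3 rose by 0.19 per day (SE 0.05, adjusted p = 0.0207). There the call was lost without 9 h (0.17, adjusted p = 0.0592), without 216 h (0.07, adjusted p = 0.473) and with the rank of time (0.19, adjusted p = 0.0945), within a range of 0.00119 to 0.473. The first series gave 0.08 (SE 0.07, adjusted p = 0.378), and 0.22 (adjusted p = 0.0243, range 0.0208 to 0.588) without its samples up to 9 h.

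Dlk1 was low in every series and dipped in the middle. The first SFEB series had 16.4 FPKM at 0 h, 6.17 at 8 h, 1.81 at 22 h, between 0.756 and 1.19 from 34 to 92 h, 5.75 at 103 h, 13.9 at 126 h and 7.75 at 142 h. In the parallel series Dlk1 was 8.49 at 0 h, between 1.13 and 3.95 from 9 to 106 h, 11.1 at 144 h and 17.4 at 216 h. The adherent monoculture held 3.20 at 0 h, 0.916 at 20.5 h, 2.78 at 140.5 h, 7.67 at 144 h and 14.2 at 216 h. Both ends of the SFEB series were high and the middle was low, so the straight line was near flat in the first, at -0.08 per day (SE 0.17, adjusted p = 0.701). Without the samples up to 9 h Dlk1 rose there by 0.54 (adjusted p = 0.0031, range 2.87e-07 to 0.985) and in the parallel series by 0.47 (adjusted p = 0.00207, range 0.00153 to 0.929). With all samples the parallel slope was 0.20 (SE 0.12, adjusted p = 0.186), and 0.32 without 0 h (adjusted p = 0.0288). In the adherent monoculture Dlk1 rose by 0.20 per day (SE 0.05, adjusted p = 0.0049), which rested on the last samples. The slope was 0.10 without 216 h (adjusted p = 0.162) and 0.01 without 144 and 216 h (adjusted p = 0.802), the highest of its 22 alternatives, whose lowest was 8.57e-05.

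Dlk1 and Meg3 did not follow each other as H19 and Igf2 did. Pearson's r was 0.285 (permutation p = 0.314), 0.668 (exact permutation p = 0.0574) and 0.264 (permutation p = 0.361) in the first, parallel and adherent series. Spearman's rho was 0.376 (permutation p = 0.186), 0.524 (exact permutation p = 0.197) and 0.129 (permutation p = 0.649). The adjusted p of r were 0.361, 0.0861 and 0.361, and those of rho 0.236, 0.236 and 0.649. Without the 2 samples whose Dlk1 lay farthest from its median, r was 0.0322, 0.252 and -0.00181. Whether this relation differs from that of H19 and Igf2 was not tested.

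Mest, a paternally expressed gene for a protein of the alpha/beta hydrolase fold that is transcribed in mesoderm and brain, had the steepest rise of the members in the first SFEB series. It went from 43.6 FPKM at 0 h through 57.6 at 8 h, 91.6 at 42.5 h, 174 at 68 h and 309.7 at 80 h to 519 at 92 h and 546 at 126 h, and was 387 at 142 h. In the parallel series Mest was 48.8 at 0 h, 139 at 84 h, 386 at 106 h, 475 at 144 h and 300.1 at 216 h. The adherent monoculture held 59.3 at 0 h, 209 at 68.5 h, 539 at 92.5 h, 554 at 144 h and 364 at 216 h. In all 3 series every sample from 80 h on was above every sample before 60 h, and Mest was the most abundant member at 142 h of the first series. Mest rose by 0.68 per day (SE 0.06, adjusted p = 1.54e-07), 0.36 (SE 0.07, adjusted p = 0.00415) and 0.42 (SE 0.07, adjusted p = 4.82e-05) in the first, parallel and adherent series, and no alternative ended a call.

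Peg10, a paternally expressed gene derived from a retrotransposon and needed in placenta, rose in all 3 series. Its lowest, median and highest FPKM were 20.9, 39.3 and 101 in the first SFEB series, 22.9, 43.9 and 180.1 in the parallel series, and 9.02, 48.2 and 123 in the adherent monoculture. The lowest values lay at 42.5, 38 and 2.5 h and the highest at 126, 216 and 216 h. The slopes were 0.28 (SE 0.06, adjusted p = 0.000773), 0.33 (SE 0.04, adjusted p = 0.000542) and 0.45 (SE 0.04, adjusted p = 5.2e-07). Peg3, a paternally expressed zinc finger protein, had lower levels. Its lowest, median and highest were 11.1, 16.4 and 27.5, then 8.81, 13.2 and 96.0, then 3.70, 12.97 and 38.8. The 3.70 at 41.5 h of the adherent monoculture stood between 10.3 at 35.5 h and 13.97 at 53.5 h, and Plagl1 had its lowest level in the same library. Peg3 rose by 0.14 (SE 0.04, adjusted p = 0.00453), 0.36 (SE 0.05, adjusted p = 0.000837) and 0.21 (SE 0.05, adjusted p = 0.0016). For both genes no alternative ended a call.

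Plagl1, a paternally expressed zinc finger transcription factor that can arrest the cell cycle, dipped and came back. In the first SFEB series it was 6.63 FPKM at 0 h, 4.41 at 8 h, 1.09 at 42.5 h, 3.08 at 80 h, 7.86 at 92 h, 13.6 at 103 h, 12.4 at 126 h and 21.9 at 142 h. The parallel series had 3.56 at 0 h, 1.03 at 38 h, 10.8 at 106 h, 34.6 at 144 h and 17.2 at 216 h. The adherent monoculture lay between 0.241 and 3.20 up to 140.5 h, then had 20.2 at 144 h and 7.27 at 216 h. The last SFEB samples were above 0 h in both series, and in the adherent monoculture only 144 and 216 h stood clear of the rest. Plagl1 rose in the parallel series by 0.38 per day (SE 0.10, adjusted p = 0.0147) and in the adherent monoculture by 0.28 (SE 0.07, adjusted p = 0.00292), but there by 0.14 without 144 and 216 h (adjusted p = 0.0534, range 0.00147 to 0.0534). The first series missed the threshold at 0.28 (SE 0.12, adjusted p = 0.0615). It passed without 0 h (0.34, adjusted p = 0.0329), 1 h (0.33, adjusted p = 0.0354), 2 h (0.33, adjusted p = 0.038) or 68 h (0.29, adjusted p = 0.0486), and without all samples up to 9 h (0.73, adjusted p = 2.05e-05), in a range of 2.32e-08 to 0.304.

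Snrpn, paternally expressed and coding for a spliceosome protein abundant in neurons, rose in the first hours and days of each series. The first SFEB series rose from 49.6 FPKM at 0 h to 151 at 42.5 h and 176 at 80 h and went back to 58.0 at 142 h. The parallel series went from 66.4 at 0 h to 132 at 38 h, 151 at 60 h and 115 at 106 h, fell to 62.1 at 144 h and was back at 123 at 216 h, and the adherent monoculture from 55.4 at 0 h to 172 at 68.5 h and 107 at 216 h. The highest sample of each series lay between 60 and 80 h. Slopes were 0.08 (SE 0.08, adjusted p = 0.427), 0.04 (SE 0.06, adjusted p = 0.619) and 0.07 (SE 0.04, adjusted p = 0.172). Without 144 and 216 h the adherent slope was 0.17 (adjusted p = 0.02, range 1.44e-08 to 0.424). A curve over time, a spline with 3 degrees of freedom added after seeing the data, gave Snrpn adjusted p of 1.21e-07, 0.00746 and 1.44e-08, within ranges over the alternatives of 1.21e-07 to 0.728, 0.00746 to 0.995 and 1.44e-08 to 0.424.

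Grb10, an adaptor that dampens signalling of the insulin and IGF receptors and is the other mainly maternal gene beside H19 and Meg3, dipped early and came back. In the first SFEB series it was 40.2 FPKM at 0 h, 13.2 at 22 h, 123 at 92 h and 88.7 at 142 h. The parallel series had 55.7 at 0 h, 25.7 at 9 h, 60.5 at 106 h and 24.9 at 216 h, and the adherent monoculture 36.5 at 0 h, 25.8 at 8.5 h, 103 at 92.5 h, 98.5 at 144 h and 29.3 at 216 h. At 216 h both protocols were below their 0 h level. Grb10 rose in the first series by 0.36 per day (SE 0.08, adjusted p = 0.00202), and its slopes were -0.01 (SE 0.06, adjusted p = 0.878) and 0.09 (SE 0.06, adjusted p = 0.233) in the others. Without 216 h the adherent slope was 0.23 (adjusted p = 0.00198), without 144 and 216 h 0.23 (adjusted p = 0.00737), and with the rank of time 0.08 (adjusted p = 0.0482), in a range of 0.000177 to 0.954.

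**Figure D1:**
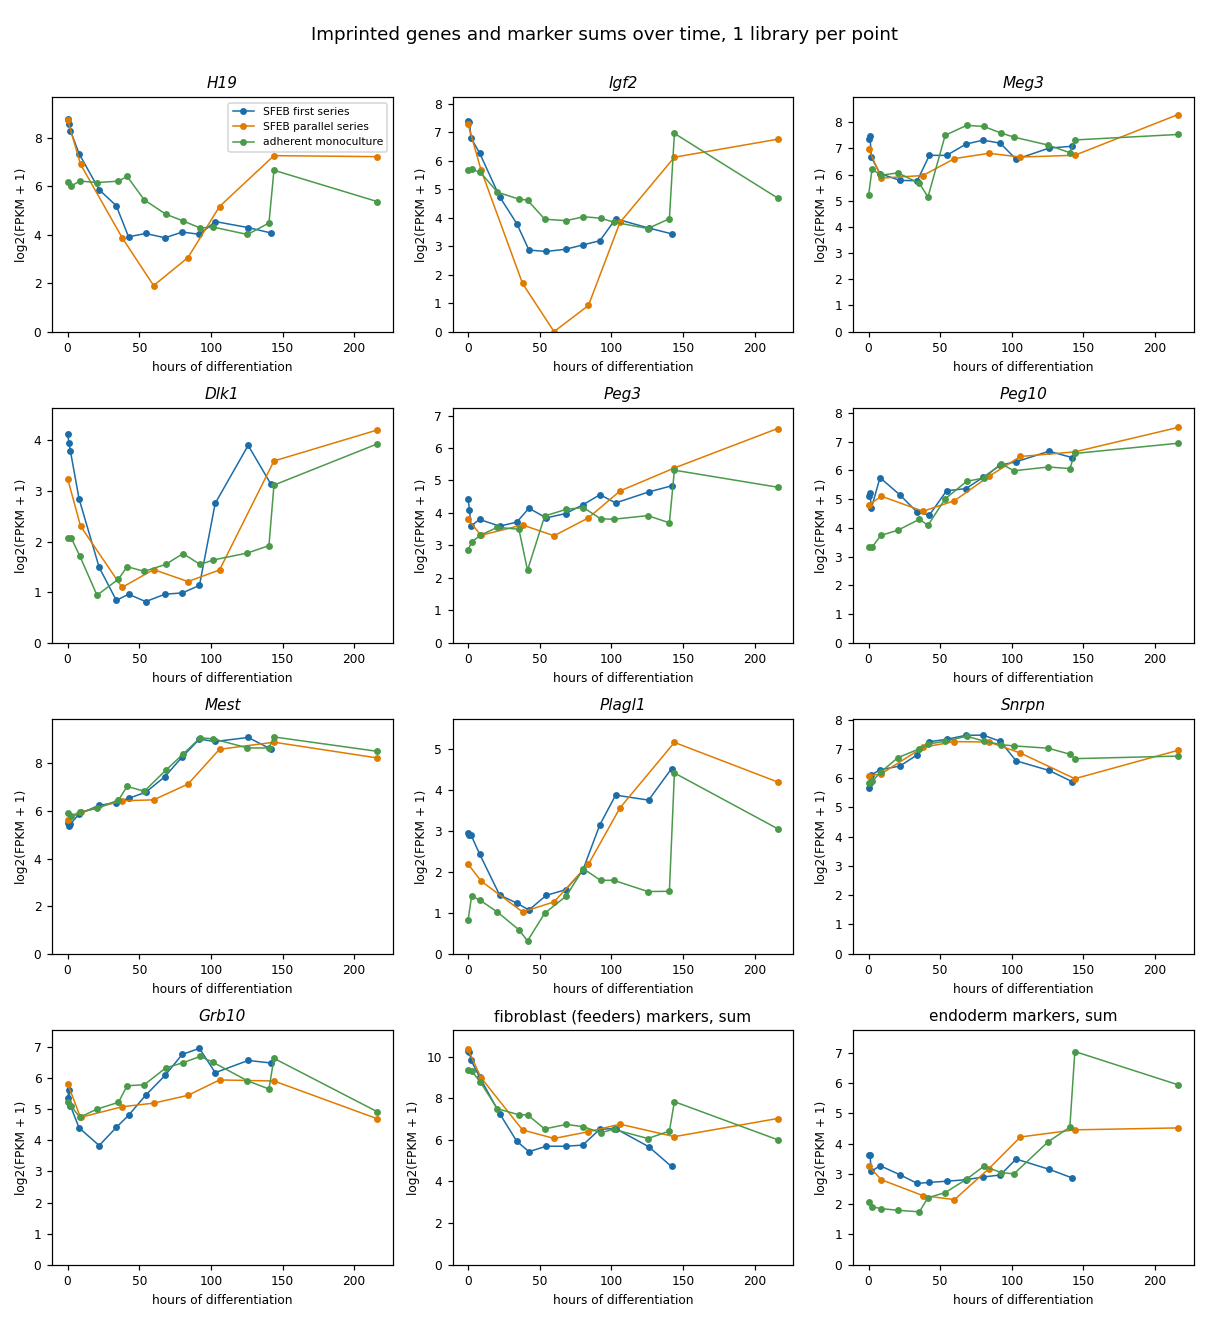
Levels of the 10 members and the sums of the fibroblast and endoderm markers, as log2(FPKM + 1) on the vertical axis against hours of differentiation, with 1 library per point and 1 colour per series. H19 and Igf2 start high and fall in both SFEB series and come back in the parallel one, Mest climbs from 43.6 to 546 FPKM in the first, and the adherent 144 h sample stands above its neighbours in H19, Igf2, Plagl1 and the endoderm sum.

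By count, 6 of 10 members were called in the first SFEB series, where 55.2% of 13009 genes were, so the share of the members was near that of all genes. Of these, 4 rose against 30.4% of all genes (Peg3, Peg10, Mest and Grb10) and 2 fell against 24.7% (H19 and Igf2). The parallel series called 5 of 10, against 44.5% of 12324 genes. All 5 rose (Meg3, Peg3, Peg10, Mest and Plagl1), where 26.0% of genes rose and 18.5% fell. The adherent monoculture called 6 of 10 against 59.8% of 12879, and all 6 rose (Meg3, Dlk1, Peg3, Peg10, Mest and Plagl1), where 35.8% of genes rose and 24.0% fell. The total shares called were thus near those of all genes, while the shares rising lay above them in the parallel and adherent series, where no member was called falling. The median slope of the members was 0.11, 0.19 and 0.20, beside 0.01, 0.01 and 0.02 over all genes. Without the samples up to 9 h the counts were 7, 8 and 5 members against 62.6%, 57.9% and 52.9% of genes. For the adherent monoculture without 144 and 216 h 8 members were called against 57.5%, among them H19 and Igf2, which fell. The curve over time called 10, 10 and 9 members, where it called 80.3%, 72.2% and 70.7% of all genes, and the 1 it did not call was Igf2 in the adherent monoculture.

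At 0 h, the only time sampled in both SFEB series, some members were close and others were not. Both series were adjusted for batch, with batches not named in the sources used here. What the adjustment did to this closeness is not known. H19 was at 439.6 and 429 FPKM, Mest at 43.6 and 48.8, and Igf2 at 167 and 154. Meg3 was further apart at 164 and 126, as were Snrpn at 49.6 and 66.4, Grb10 at 40.2 and 55.7, and Peg10 at 33.8 and 26.7. Dlk1 was at 16.4 and 8.49, Plagl1 at 6.63 and 3.56, and Peg3 at 20.7 and 12.9. The low members thus differed most between libraries of the same time, and with 1 library each there is no replicate error to set this against. The adherent monoculture, normalized in another table, began with H19 at 70.6, Igf2 at 49.4 and Peg10 at 9.17.

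In the E14 libraries Fyn was checked against the labels before the members. It stood at 3.21, 2.74 and 4.00 FPKM in WT day 0 and at 9.43, 4.54 and 6.76 in WT day 4, against 0.598, 0.598 and 1.10 in Fyn KO day 0 and 1.19, 1.13 and 1.58 in Fyn KO day 4. Every KO library was below every WT library. The deletion takes away only part of the coding sequence, so reads from the rest of the gene still count. Nothing in the labels says that the 3 libraries of a group were separate cultures, so p-values measure the spread between these samples, which may be technical. With 3 against 3 an exact test cannot go below p = 0.1, and limma borrows its spread from all 4 groups and all genes.

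At day 0 H19 and Igf2 had far lower FPKM than R1 cells at 0 h, in tables that were normalized apart. The culture protocol of the E14 libraries is not given in their labels. H19 was 0.352, 2.15 and 7.24 FPKM in the 3 WT day 0 libraries, 0.851, 34.3 and 28.5 in WT day 4, 0.0406, 0 (as listed) and 3.003 in Fyn KO day 0, and 6.78, 5.99 and 60.5 in Fyn KO day 4. The WT groups overlap through WT day 4 replicate 1, while every KO day 4 library was above every KO day 0 library. Igf2 was 0.627, 1.01 and 1.10 in WT day 0, 2.95, 2.94 and 2.49 in WT day 4, 0.213, 0.109 and 0.160 in Fyn KO day 0, and 1.70, 0.963 and 1.83 in Fyn KO day 4. Day 4 was above day 0 in both genotypes, and KO was below WT at both days, with no overlap. The fibroblast sum was at most 6.05 at day 0 and at most 22.1 at day 4, with Thy1 or Tagln the most abundant in all but 1 library and 3 to 7 of the 12 markers at 0. Its part in these levels was not tested.

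Igf2 rose from day 0 to day 4 by 0.99 log2 units in WT (SE 0.20, adjusted p = 0.00539) and by 1.09 in Fyn KO (SE 0.20, adjusted p = 0.00459), and no left-out library ended either call. With a pseudocount of 0.1, which weighs low values more, the differences of Igf2 were 1.54 and 2.59. H19 differed by 1.93 in WT (SE 1.17, adjusted p = 0.247) and by 3.22 in KO (SE 1.17, adjusted p = 0.0749). Without WT day 4 replicate 1 the WT difference was 3.301 (adjusted p = 0.0417) and the KO difference 3.22 (adjusted p = 0.027). Without Fyn KO day 0 replicate 3 the KO difference was 3.87 (adjusted p = 0.0461), and without both libraries H19 rose by 3.301 in WT (adjusted p = 0.0252) and 3.87 in KO (adjusted p = 0.0105). With a pseudocount of 0.1 the KO difference was 5.28 (adjusted p = 0.0431), and with the replicate number as a block it was 3.22 (adjusted p = 0.0116). The numbers did not pair the KO days, so for them the block is a hint from the data only. Over 17 alternatives the adjusted p of H19 ran from 0.0252 to 0.543 in WT and from 0.0105 to 0.258 in KO. Endoderm markers, 9 of 9 in this table, moved with H19 in part. Their sum was 2.03, 8.70 and 2.69 in WT day 0, 9.52, 70.9 and 105 in WT day 4, 0.56, 0.67 and 2.95 in Fyn KO day 0 and 3.23, 2.38 and 17.3 in Fyn KO day 4. At day 4 the libraries with more than 20 FPKM of H19 had the higher endoderm sums of their group. Dab2 was the most abundant marker in the WT day 4 libraries, up to 54.1, and 0 to 5 of the 9 markers were at 0. Their part in the level of H19 was not tested.

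Meg3 was 46.8, 52.6 and 76.6 FPKM in WT day 0, 119, 119.6 and 199 in WT day 4, 52.6, 52.0 and 88.3 in Fyn KO day 0, and 102, 104 and 167 in Fyn KO day 4. Snrpn was 20.3, 27.2 and 44.3, then 98.1, 86.1 and 174, then 27.9, 27.2 and 64.4, then 129, 112 and 138 in the same order. Day 4 lay above day 0 without overlap for both genes in both genotypes, and the genotypes overlapped at each day. Within each replicate number Meg3 at day 4 was lower in KO than in WT. With the number as a block in limma this difference was -0.22 (adjusted p = 0.309). Meg3 rose by 1.29 in WT (SE 0.29, adjusted p = 0.00799) and 0.95 in KO (SE 0.29, adjusted p = 0.0382), and Snrpn by 1.93 (SE 0.36, adjusted p = 0.00364) and 1.75 (SE 0.36, adjusted p = 0.00767). The KO call of Meg3 was lost without any 1 of 5 KO libraries: day 0 replicate 1 (0.83, adjusted p = 0.128) or 2 (0.82, adjusted p = 0.14), or day 4 replicate 1 (1.07, adjusted p = 0.0513), 2 (1.06, adjusted p = 0.0545) or 3 (0.72, adjusted p = 0.148). It was also lost without WT day 0 replicate 2 (0.95, adjusted p = 0.051) and with no filter on low genes (0.95, adjusted p = 0.0669), in a range of 0.000371 to 0.148.

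Dlk1, the neighbour of Meg3, was near 0 in most of these libraries. It was 0.157, 0.163 and 0.445 FPKM in WT day 0, 1.17, 0.231 and 0.354 in WT day 4, 0.05, 0.0756 and 1.48 in Fyn KO day 0, and 0.219, 0.0120 and 0.147 in Fyn KO day 4. The days overlapped in both genotypes, and the genotypes overlapped at day 0. At day 4 the highest KO library, at 0.219, lay just below the lowest WT library, at 0.231. Only 2 of 12 libraries reached 1 FPKM. Dlk1 did not pass the filter, so 9 members were tested.

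Mest was 40.4, 19.2 and 51.8 FPKM in WT day 0, 249, 71.6 and 147 in WT day 4, 20.5, 12.6 and 79.5 in Fyn KO day 0, and 28.4, 37.8 and 42.2 in Fyn KO day 4. Peg3 was 4.36, 3.16 and 6.51, then 23.5, 12.98 and 28.6, then 5.97, 6.24 and 13.5, then 4.65, 16.1 and 14.1 in the same order. Both were higher at day 4 without overlap in WT, while in Fyn KO the days overlapped, for Mest only through day 0 replicate 3. Mest rose in WT by 1.98 (SE 0.61, adjusted p = 0.0336) and Peg3 by 1.97 (SE 0.44, adjusted p = 0.00866). In Fyn KO the differences were 0.35 for Mest (adjusted p = 0.719) and 0.33 for Peg3 (adjusted p = 0.632). The interaction of genotype and day was -1.62 for Mest (SE 0.86, unadjusted p = 0.0847) and -1.64 for Peg3 (SE 0.63, unadjusted p = 0.0235, adjusted p = 0.997), so a difference between the genotypes in these changes was not shown. Without both libraries that stand apart the KO difference of Mest was 1.10 (adjusted p = 0.0738, range 0.0738 to 0.916) and its interaction -0.45. The WT call of Mest was lost without WT day 0 replicate 1 (2.09, adjusted p = 0.0545) or 2 (1.57, adjusted p = 0.131), without WT day 4 replicate 1 (1.55, adjusted p = 0.12) or 3 (1.93, adjusted p = 0.0814), and with no filter (1.98, adjusted p = 0.0616), in a range of 0.00735 to 0.131. Peg3 kept its call without any 1 library.

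Peg10 was 15.8, 125 and 65.4 FPKM in WT day 0, 111, 29.1 and 86.1 in WT day 4, 8.52, 11.5 and 35.5 in Fyn KO day 0, and 119, 91.4 and 62.6 in Fyn KO day 4. The WT days overlap fully and the KO days do not overlap. Peg10 differed by 0.35 in WT (SE 0.72, adjusted p = 0.759) and rose by 2.45 in KO (SE 0.72, adjusted p = 0.0348). The interaction was 2.099 (SE 1.02, unadjusted p = 0.0627), and 3.06 without both libraries that stand apart. The KO call was lost without KO day 0 replicate 1 (2.06, adjusted p = 0.124) or 2 (2.26, adjusted p = 0.118), without KO day 4 replicate 1 (2.23, adjusted p = 0.0987), 2 (2.43, adjusted p = 0.0787) or 3 (2.69, adjusted p = 0.068), and with no filter (2.45, adjusted p = 0.0671), in a range of 0.0111 to 0.124.

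Of the members called in the E14 libraries, Plagl1 was the only one that fell. It was 14.2, 15.2 and 33.6 FPKM in WT day 0, 5.58, 0.466 and 1.04 in WT day 4, 16.3, 23.3 and 0.832 in Fyn KO day 0, and 0.297, 0.357 and 0.406 in Fyn KO day 4. Day 4 was below day 0 without overlap in both genotypes, and Fyn KO day 0 replicate 3, which stood apart, was much lower than its group. Mesoderm markers, 8 of 8, summed to 16.8, 10.6 and 1.35 in Fyn KO day 0, with T at 16.05 and 9.45 in the first 2, and to 0.965, 0.9498 and 0.653 in Fyn KO day 4. The WT sums were 6.89, 2.34 and 1.45 at day 0 and 0.835, 1.204 and 1.17 at day 4. In these libraries 1 to 4 of the 8 markers were at 0. Only 1 of the 8, T, reached 1 FPKM in any of them, so the sums of 16.8 and 10.6 were nearly all T. Their part in the fall of Plagl1 was not tested. Plagl1 fell by 2.92 in WT (SE 0.83, adjusted p = 0.024) and fell by 2.76 in KO (SE 0.83, adjusted p = 0.0376). The WT call was lost without WT day 0 replicate 2 (-3.08, adjusted p = 0.0548) or 3 (-2.53, adjusted p = 0.088), or WT day 4 replicate 2 (-2.48, adjusted p = 0.078) or 3 (-2.72, adjusted p = 0.0713), in a range of 0.000141 to 0.088. The KO call was lost without KO day 0 replicate 1 (-2.30, adjusted p = 0.133) or 2 (-2.06, adjusted p = 0.153), KO day 4 replicate 1 (-2.73, adjusted p = 0.0859), 2 (-2.76, adjusted p = 0.0803) or 3 (-2.79, adjusted p = 0.0957), WT day 0 replicate 2 (-2.76, adjusted p = 0.0504) and with no filter (-2.76, adjusted p = 0.0723), in a range of 5.89e-05 to 0.153. Without both libraries that stand apart the KO difference was -3.92 (adjusted p = 5.89e-05). Grb10 was 23.8, 14.6 and 14.2, then 151, 17.5 and 4.29, then 18.5, 22.8 and 29.7, then 18.1, 9.22 and 10.3 in the same order. Its 151 lay in WT day 4 replicate 1, the day 4 library with the highest sum of neural progenitor markers. Grb10 differed by 0.44 in WT (SE 0.87, adjusted p = 0.748), a direction that rests on that library, since without it the difference was -0.87, and by -0.90 in KO (SE 0.87, adjusted p = 0.495).

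**Figure D2:**
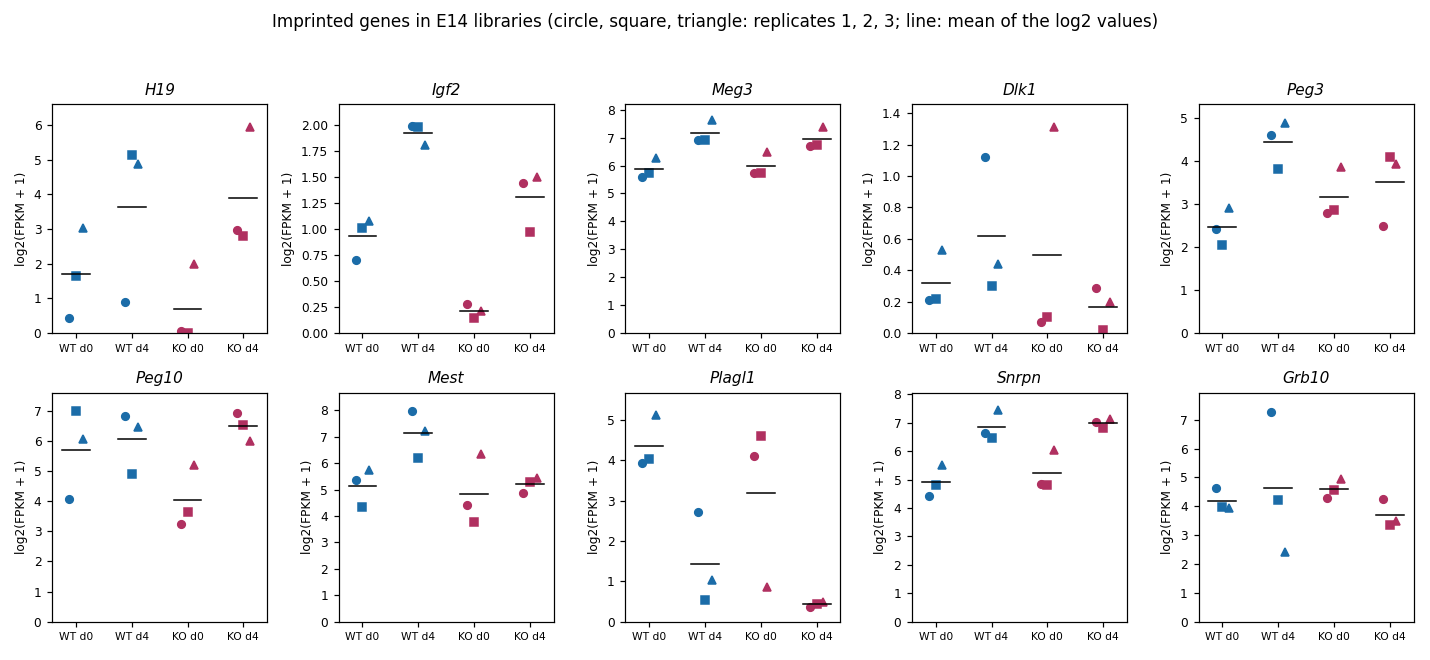
Levels of the 10 members in the 12 E14 libraries, as log2(FPKM + 1) on the vertical axis for WT and Fyn KO at day 0 and day 4. Circles, squares and triangles are replicates 1, 2 and 3 of a group and the black line is the mean of the log2 values. Meg3 and Snrpn are higher at day 4 in both genotypes, Plagl1 is lower, and Igf2 in Fyn KO lies below WT at both days.

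Over the members tested, 6 of 9 were called between day 0 and day 4 in WT, above the 25.8% of 12257 genes. Of these, 5 rose against 15.5% and 1 fell against 10.3%. In Fyn KO 5 of 9 were called, above the 19.3% of all genes, 4 up against 11.8% and 1 down against 7.56%. Groups did not overlap for 6 of 9 members in WT, against 42.2% of genes, and for 7 of 9 in KO, against 38.7%. The median difference of the members was 1.29 in WT and 0.95 in KO, beside 0.08 and 0.05 over all genes. Without both libraries that stand apart 7 members were called in WT against 23.4% of genes and 6 in KO against 27.6%. The KO count was 2 without any 1 of the KO libraries other than day 0 replicate 3, where the genes called fell too, from 2370 to between 1041 and 1824. It was 3 without WT day 0 replicate 2, with 2122 genes called, and 2 with no filter, with 2232, while the WT count stayed between 4 and 6 when 1 library was left out. Since the members were chosen knowing earlier results of these data, this is a description of the list.

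Between Fyn KO and WT, limma called 0 of 9 members at day 0, where it called 0.171% of genes, 21 in number, 0.0408% higher and 0.131% lower in Fyn KO. At day 4 it called 0 of 9 members and 0.0734% of genes, 9 in number, 0.00816% higher and 0.0653% lower, and in the interaction 0 of 9 members and 0% of genes. Without both libraries that stand apart it called 0 members in each, and 0.530%, 0.0911% and 0% of genes. At an unadjusted p under 0.05 these comparisons held 2, 2 and 1 members, against 14.6%, 12.1% and 4.38% of genes. With the replicate number as a block in limma, Peg3 (0.0282) and Meg3 (0.0382) also had an unadjusted p under 0.05 at day 4. In the interaction Mest (0.0336) and Meg3 (0.0274) did too, while Peg10 at day 0 stood at 0.0503. No member passed after adjustment, and the share of all genes under the block is not given here. Igf2 had a log2 difference of -0.71 at day 0 (SE 0.20, unadjusted p = 0.0044, adjusted p = 0.147) and of -0.62 at day 4 (SE 0.20, unadjusted p = 0.0104, adjusted p = 0.248). Peg10 at day 0 had -1.68 (SE 0.72, unadjusted p = 0.0391, adjusted p = 0.316) and Mest at day 4 -1.92 (SE 0.61, unadjusted p = 0.00851, adjusted p = 0.235). None of the 17 alternatives brought one of these below the threshold. The adjusted p of Igf2 ran from 0.0791 to 0.414 at day 0 and 0.201 to 0.558 at day 4, that of Peg10 from 0.0944 to 0.738 and that of Mest from 0.1 to 0.532. At day 0 the neuron marker sums given above also differed between the genotypes without overlap, KO being the higher, and their part in the differences of Igf2 and Peg10 was not tested. Groups did not overlap for 1 member at day 0, Igf2, against 21.4% of genes. At day 4 they did not for 3 of the 9 members tested, Igf2, Mest and Plagl1, against 16.5%, and KO was the lower group each time. Sums of cell type markers leaned apart there within each number, but unlike these members their groups overlapped between the genotypes. Neural progenitor markers, 7 of 7, summed to 17.6, 10.2 and 31.2 in KO day 4 and to 183, 23.3 and 50.6 in WT day 4. Fabp7 was the most abundant in WT replicate 1 and Nes or Sox11 in the others, with 0 to 2 markers at 0. The endoderm sums given above were also higher in each WT library than in the KO library of its number. ES cell markers, 8 of 8 with none at 0, were higher in each KO library than in the WT library of its number. They summed to 1795, 2344 and 2266 in KO day 4 and to 813, 2102 and 1992 in WT day 4, with Dppa5a the most abundant. The part of these markers in the lower KO levels was not tested. The median difference of the members was -0.30 at day 0 and -0.62 at day 4, beside 0.00 and -0.03 over all genes. These comparisons share libraries with those between days, so they are not independent of them.

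In the single cells values are log10(RPKM + 1), quantile normalized by the study. The study states that genes were kept that passed 0.5 RPKM in at least 8 of the 64 cells. The table held 9 of the members, without Peg10. The deposited values of Dlk1 and Plagl1 do not meet that rule, and why they were kept is not known. Dlk1 did not pass 0.125 outside 106 and 216 h, where 1 and 4 cells were above 0. Plagl1 did not pass 0.0676 before 216 h, where its median was 0.0189. The 8 cells of a time came from 1 culture and are no replicates, so values are given with no test. Meg3, Mest and Snrpn were above 0 in 64 of 64 cells, Grb10 in 52, H19 in 46, Igf2 in 42, Peg3 in 25, Dlk1 in 24 and Plagl1 in 18. The normalization gives many values only just above 0, so a cell above 0 is not the same as a cell with reads.

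H19 was above 0 in 8 of 8 cells at 0, 9 and 216 h, in 6 at 38 h, 4 at 60 h, 7 at 84 h, 2 at 106 h and 3 at 144 h. Its median was 0.122 at 0 h and 0.745 at 9 h, between 0 and 0.0197 from 38 to 144 h, and 0.822 at 216 h, and its highest cell held 2.09, 2.22 and 2.38 at 0, 9 and 216 h. At 0 h the highest cell was thus far above a median near 0. Igf2 had medians of 0.0645, 0.900 and 1.27 at 0, 9 and 216 h, from 0 to 0.0184 in between, and highest cells of 1.63, 2.12 and 2.39. Both genes were above 0 together in 8 cells at 0, 9 and 216 h and in 4, 3, 4, 1 and 2 cells at the times between. At 144 h, where the population held 152 FPKM of H19, the highest of 8 cells had 0.571.

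Fibroblast markers, 7 of 12 in the single-cell table, were compared with H19 cell by cell. At 9 h the cell with the most H19 also had the highest fibroblast sum of its 8 cells, 415 RPKM, and at 0 h the cell with the most H19 had the third highest, 66.5. At 38 h that cell, with 1.19 of H19, had a fibroblast sum of 0, the lowest of its time, and at 60 h, with 1.25, it had 3.28, rank 3. Igf2 was 0 in both of these cells. From 84 to 144 h the rank lay between 2 and 4. At 216 h the cell with the most H19 had a fibroblast sum of 0.134, rank 7 of 8. The highest sum at 216 h was 21.6. Per time point the mean fibroblast sum was 31.8, 68.6, 6.59, 2.81, 2.98, 7.81, 30.8 and 3.69 RPKM from 0 to 216 h, with 2 of 7 markers at 0 at 106 h and none at the other times. At 9, 38 and 144 h the highest cell had a sum of 415, 49.6 and 188, and the median cell 5.15, 0.134 and 6.41. Endoderm markers, 3 of 9, summed to 56.0 at 216 h, nearly all of it Foxa2 at 55.9, against 9.78 or less at every other time, with 1 of 3 at 0. These are means over 8 cells, and at 216 h the highest cell had a sum of 358 and the median cell 7.76. Their part in the 216 h levels was not tested.

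Mest had medians of 0.874, 1.58, 1.39, 1.62, 1.86, 1.20, 1.94 and 1.55 over the 8 times, highest at 144 h as in the population. Snrpn had 1.15, 1.32, 2.40, 2.34, 1.89, 2.00, 1.56 and 1.23, high from 38 to 106 h. Meg3 had 0.341 at 0 h and from 0.914 to 1.17 from 60 h on. Grb10 was spread, with medians between 0 and 0.633, the latter at 106 h, and a highest cell of 2.47 at 144 h but only 0.0355 at 216 h. Peg3 was above 0 in 5 or fewer cells per time up to 144 h and in 8 at 216 h, with a median of 0.393 there. Plagl1 was above 0 in 3 or fewer cells up to 144 h and in 7 at 216 h, where its highest cell had 1.44. Dlk1 did not pass 0.652 in any cell. At 216 h the cell numbered 16 had 0.312 for H19, 0.189 for Igf2 and 0 for Grb10, Dlk1 and Plagl1, but 0.755 for Peg3 and 1.42 for Mest. Without it the 216 h median of Peg3 was 0.1998. The mean was highest at 216 h for 4 of 9 members, and for 6 of 9 without that cell.

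**Figure D3:**
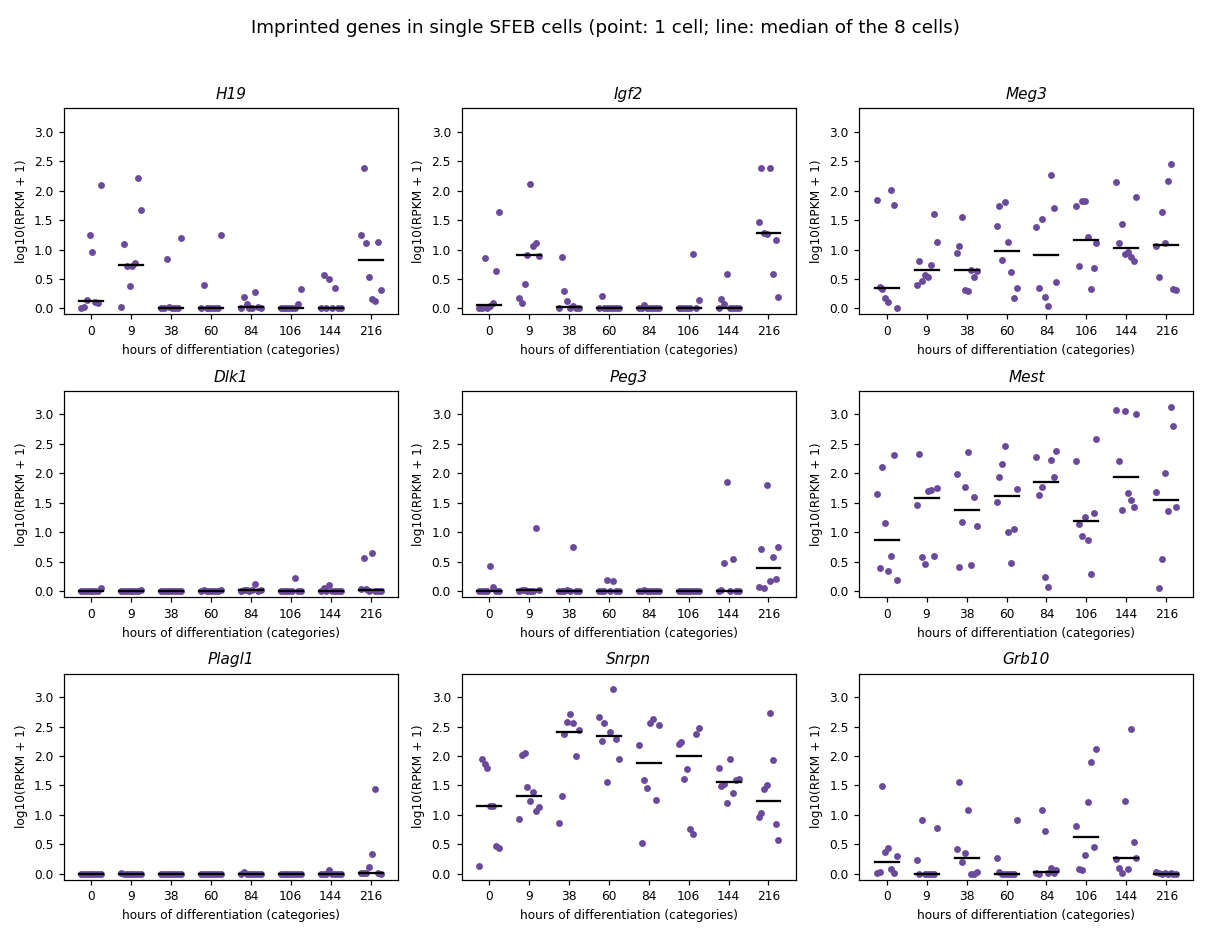
Single-cell levels of 9 members, as log10(RPKM + 1) on the vertical axis for 8 cells at each of 8 times, with 1 point per cell and a line at the median. The medians of H19 and Igf2 are highest at 9 and 216 h and near 0 from 38 to 144 h, and Snrpn is highest at 38 h with a median of 2.40.

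A list of 46 other imprinted genes was tested in the same fits. In the first, parallel and adherent series 26 of 38, 21 of 36 and 23 of 37 tested genes were called, where 55.2%, 44.5% and 59.8% of all genes were, with 18 rising in each and 8, 3 and 5 falling, and median slopes of 0.12, 0.09 and 0.16. In WT 16 of 37 were called against 25.8% of all genes, 12 up and 4 down, and in Fyn KO 10 of 37 against 19.3%, 7 up and 3 down, with median differences of 0.65 and 0.30. Between the genotypes and in the interaction limma called 0. Nnat, a paternally expressed membrane proteolipid of brain, rose in the 3 series by 0.54 (SE 0.04, adjusted p = 6.38e-08), 1.16 (SE 0.09, adjusted p = 0.000119) and 0.81 (SE 0.06, adjusted p = 7.83e-08) per day. Peg12 and Cdkn1c, a maternally expressed inhibitor of cyclin-dependent kinases, also rose in all 3, by 0.69, 0.52 and 0.55 and by 0.44, 0.43 and 0.49. Phlda2, maternally expressed and a brake on placental growth, fell in all 3, with slopes of -0.56, -0.48 and -0.25. In the E14 cells Ndn, paternally expressed in neurons, rose by 1.96 in WT (SE 0.48, adjusted p = 0.0127) and 2.28 in KO (SE 0.48, adjusted p = 0.00806), and Atp10a by 2.31 and 2.22.

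Of the IGF axis, which carries the signal of Igf2, 13 of 16, 9 of 15 and 12 of 17 tested genes were called in the 3 series, with 9, 8 and 8 rising, and 11 of 15 in WT and 4 of 15 in Fyn KO, with 10 and 4 rising. Of all genes 55.2%, 44.5% and 59.8% were called in the series, 25.8% in WT and 19.3% in Fyn KO. Between the genotypes and in the interaction limma called 0. Igfbp5, a secreted protein that binds IGFs, rose by 0.51 (SE 0.08, adjusted p = 5.16e-05), 0.73 (SE 0.13, adjusted p = 0.00218) and 0.62 (SE 0.06, adjusted p = 6.48e-07) per day, while Igfbp7 fell, with slopes of -1.17, -0.44 and -0.50. Irs2, a docking protein of the insulin and IGF receptors, rose by 2.15 in WT (SE 0.35, adjusted p = 0.00184) and 1.54 in KO (SE 0.35, adjusted p = 0.0116).

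The list of imprint maintenance, 17 genes that set, keep or remove DNA methylation or bind at imprinting control regions, was called mostly downward over time. In the series 9, 8 and 11 of 17 were called, against 55.2%, 44.5% and 59.8% of all genes, with 8, 6 and 10 falling, against 24.7%, 18.5% and 24.0%, and median slopes of -0.11, -0.08 and -0.12. Zfp57, a zinc finger protein that binds methylated control regions and recruits Trim28, fell by 0.43 (SE 0.08, adjusted p = 0.000362) in the first and fell by 0.29 (SE 0.07, adjusted p = 0.00167) in the adherent series. Tet1 and Dnmt3l fell in all 3, Tet1 with slopes of -0.52, -0.28 and -0.30, and Tet3 rose by 0.47, 0.33 and 0.38. In the E14 cells Zfp57 was 190.1, 169 and 146 FPKM in WT day 0, 31.4, 39.6 and 38.7 in WT day 4, 142, 144 and 120 in Fyn KO day 0, and 37.3, 43.6 and 27.4 in Fyn KO day 4. The days do not overlap in either genotype, and it fell by 2.17 (SE 0.17, adjusted p = 7.24e-05) in WT and fell by 1.89 (SE 0.17, adjusted p = 0.000158) in KO. In WT and KO 9 of 17 were called each, 4 up and 5 down in WT, against 15.5% and 10.3% of all genes, and 3 up and 6 down in KO, against 11.8% and 7.56%. The totals over all genes were 25.8% and 19.3%. Dnmt3b rose by 3.11 and 3.02, Dnmt3a by 2.95 and 2.93, and Tet2 fell, with differences of -2.88 and -2.56.

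Genes whose pattern was most like a member's were ranked among 10271 genes by the mean of Pearson's r over the 22 SFEB and the 15 adherent samples, as a description. Mest was followed most closely, by Pde5a (mean r 0.975), Igf2bp3 (0.97) and 2810030E01Rik (0.97). Peg10 had Meis2 (0.952), Mark1 (0.948) and Zcchc14 (0.948), and Snrpn had Pcdh1 (0.949), Pou3f1 (0.948) and Vrtn (0.936). Igf2 had Itm2b (0.932), Olfml3 (0.924) and Tmem176b (0.912), and H19 had Glipr2 (0.91), Cox6b2 (0.904) and Mfge8 (0.902). For Dlk1 they were Prkar1b (0.914), Sdc3 (0.913) and Sfxn3 (0.897), for Plagl1 Smarca2 (0.905), Col4a5 (0.9) and Ano1 (0.899), and for Peg3 Mycbp2 (0.901) and Tox2 (0.877). The lowest values belonged to Grb10, with Pls3 (0.887), Car13 (0.85) and Lrig3 (0.824), and to Meg3, with Cdc42bpa (0.83), Camk2g (0.826) and Myo5a (0.824).

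Promoter windows from RefSeq (GRCm38.p6, 300 bases across each gene's start) were matched by symbol for 8 members, 18 windows in all; H19 and Peg10 are named only. The hexamer TGCCGC, or GCGGCA on the other strand, is what Zfp57 binds when methylated. It was in 7 of the 18 windows and in 3813 of all 32851 windows (11.6%). Of the 7, 2 are overlapping Mest windows 3 bases apart that hold the same hexamers. By gene it was in a window of 6 of 8 members and of 3527 of 27025 genes (13.1%), and members with several windows had more chances to hold it. The members with it were Igf2, Meg3, Mest, Plagl1, Snrpn and Grb10. A match is a description of the letters and says nothing of binding. The median window of the genome had 7 CpG. Grb10 had 45 in the window at chr11:12037371-12037670 on the minus strand, as many as or more than 98.4% of windows. The sequences are shown for Mest, the member with the steepest rise in the first SFEB series, and Plagl1, the member that fell in the E14 libraries, both on the plus strand with the hexamer in capitals. The Mest window chr6:30737800-30738099 holds 17 CpG and 2 hexamers, and the Plagl1 window chr10:13090582-13090881 holds 26 CpG and 1.
Mest: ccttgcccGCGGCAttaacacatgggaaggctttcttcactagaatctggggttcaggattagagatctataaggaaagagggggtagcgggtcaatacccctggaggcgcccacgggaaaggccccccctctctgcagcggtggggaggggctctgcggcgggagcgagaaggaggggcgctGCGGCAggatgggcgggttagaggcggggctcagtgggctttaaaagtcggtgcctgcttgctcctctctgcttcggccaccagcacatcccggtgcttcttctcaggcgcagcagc
Plagl1: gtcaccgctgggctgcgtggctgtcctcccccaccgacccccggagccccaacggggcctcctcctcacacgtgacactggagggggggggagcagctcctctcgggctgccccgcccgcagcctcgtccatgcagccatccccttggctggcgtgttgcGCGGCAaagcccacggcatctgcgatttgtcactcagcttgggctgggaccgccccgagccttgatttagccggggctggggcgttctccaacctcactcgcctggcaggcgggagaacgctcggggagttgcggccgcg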

How the data were processed

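RNA sequencing was analysed for 49 bulk libraries and 64 single cells. For the bulk libraries the authors deposited FPKM per gene (TopHat2 2.0.8b and Cufflinks 2.1.1, builds mm9 and mm10, per the submitters' processing notes). The study's methods name other versions of TopHat and Cufflinks and only mm9, and which were used for each library is not known. The SFEB populations were adjusted for batch with ComBat by the authors, which left 418 values below 0 in the first and 838 in the parallel series. These were set to 0. For single cells the authors deposited log10 values of RPKM + 1 after quantile normalization. The study states a minimum of reads per library for the single cells and the parallel SFEB populations, but the files give no read counts, so the depth reached by each library is not known. In an E14 library 10713 to 11668 genes reached 1 FPKM.

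Samples were grouped by their titles. limma 3.58.1 in R 4.3.3 was run on log2(FPKM + 1) with a trended variance, for genes reaching 1 FPKM in 3 or more samples. One model held the 4 E14 groups and its 5 contrasts, and each time series had a model linear in hours. Permutation tests used scipy 1.17.1 and were two-sided. Both kinds of test were tried on simulated data. Figures were drawn with matplotlib 3.10.9. The members, the lists and the markers were chosen with earlier results of these data known. Of the other lists, up to 5 imprinted and up to 3 genes of the other lists per direction and comparison, by size of change among those called, could be named. Of the genes most like a member, up to 3 per member were named, and 1 is not reported here.

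Alternatives were a pseudocount of 0.1, no filter, quantile normalization, the rank of time, each sample left out in turn and the replicate number as a block. A curve over time, leaving out the samples up to 9 h, leaving out 144 and 216 h of the adherent monoculture, and leaving out both E14 libraries that stand apart were added after seeing the data. The E14 labels number the libraries 1 to 3 in each group. Deviations from the group means correlated within a number between WT day 0 and WT day 4 (r of 0.199, 0.220 and 0.224 for numbers 1, 2 and 3) and between WT and Fyn KO day 4 (0.136, 0.258 and 0.240). These numbers were taken as a possible pairing there, from the data and not from the labels, and the r were low. They did not pair Fyn KO day 0 with day 4 (0.0239, 0.0899 and 0.00112) or WT with Fyn KO at day 0 (0.0628, 0.339 and -0.115).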

Additional observations from a re-analysis of the deposited data

How the results depend on the processing

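The depth reached by each library is not known, which limits what can be said of members near 0 FPKM. With 1 library per time point, a trend has no replicate check, and with 3 libraries per E14 group a single library can end a call. The counts for single genes leave out the curve over time, which gives no slope. Of these values, 1199 kept direction and side of the threshold over the other alternatives, 27 gained a call, 38 lost one and 49 changed sign. Of the counts and other values that answer a comparison, 260 were kept, 37 moved and 1 changed sign. For all changes listed here the cause was not tested.

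Among alternatives added after seeing the data, the curve over time called 10 members in the first and 10 in the parallel SFEB series, and 8902 genes in the latter. Without the samples up to 9 h the parallel series called 8 members, and signs turned for Dlk1 (0.54) and Snrpn (-0.16) in the first, Snrpn (-0.073) in the parallel, and Igf2 (0.062) and Snrpn (-0.046) in the adherent series. With the rank of time the parallel slopes were -0.047 for H19 and 0.0093 for Grb10. Leaving out 1 sample, slopes ran from -0.23 to 0.0062 for Dlk1 in the first series, and in the parallel series from -0.22 to 0.34 for H19, -0.19 to 0.49 for Igf2, -0.0006 to 0.080 for Snrpn and -0.054 to 0.12 for Grb10, with 2377 to 6028 genes called. Without the 2 samples farthest from the median the r of Dlk1 and Meg3 in the adherent monoculture was -0.00181.

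Leaving out 1 E14 library, day 4 against day 0 in WT ran from -0.46 to 0.99 for Peg10 and -0.87 to 1.55 for Grb10, with 1831 to 3528 genes called. In Fyn KO it ran from -0.18 to 1.10 for Mest, with 2 to 6 members and 1041 to 3063 genes called, and no filter left 2 members. Fyn KO against WT at day 0 ran from -1.04 to 0.24 for Mest, -0.13 to 0.32 for Meg3, -1.86 to 0.0085 for Plagl1 and -0.074 to 0.62 for Snrpn, with 4 to 128 genes called. At day 4 it ran from -1.11 to 1.02 for H19, -2.02 to 0.40 for Grb10, -0.15 to 0.80 for Peg10, -0.055 to 0.45 for Snrpn and -0.45 to 0.022 for Meg3, with 5 to 14 genes called. The interaction ran from -1.01 to 0.86 for Plagl1, -0.48 to 0.22 for Snrpn, -0.0032 to 0.26 for Igf2 and -0.085 to 2.04 for H19, with 0 to 4 genes called.

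Without both E14 libraries that stand apart, WT day 4 against day 0 was -0.025 for Peg10 and -0.87 for Grb10, and Fyn KO against WT at day 0 was -0.13 for Meg3, 0.0085 for Plagl1 and -0.074 for Snrpn, with 64 genes called. At day 4 it was -1.11 for H19 and 0.40 for Grb10, and the interaction was -0.36 for Plagl1, 0.11 for Snrpn and 0.15 for Grb10. A pseudocount of 0.1 gave an interaction of -0.32 for Plagl1. Without a filter 35 genes were called between the genotypes at day 0, 24 at day 4 and 1 in the interaction, and quantile normalization called 17 at day 4.

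With the replicate number as a block, 6 members were called in WT and 6 in Fyn KO, where H19 was added (3.22, adjusted p = 0.0116, range over its alternatives 0.0105 to 0.258), and 0 between the genotypes and in the interaction. Over all genes the block called 3563, 2779, 38, 10 and 2 in the 5 contrasts. It changed no other call of a member. In the WT and the day 4 comparisons every library correlated best with its own number, though weakly, and in the other comparisons not every library did. In all of them the block is a hint from the data only.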
